A study of Mus musculus with 6 samples.

Results

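Coinhibitory receptors are surface proteins that dampen T cell activation after they bind a ligand on a neighboring cell, and the transcripts of 7 of them were followed here through cells sorted by FACS as CD8+CD122+CD49dlow T cells (CD8+ TRLs), a population with regulatory activity. The members were the gene symbols *Pdcd1*, *Ctla4*, *Lag3*, *Havcr2*, *Tigit*, *Btla*, and *Cd160*, chosen by name, and all 7 were found among the 24394 genes of the count table and all 7 were among the 12424 genes with enough counts to test. The samples came from WT mice of the C57BL/6NCrl background, 9 weeks old by the labels, although the study's methods give another C57BL/6 substrain and a wider age range, and each held 500 to 1000 sorted cells. Sham blood came from mice that had a sham operation, while tMCAO blood and tMCAO brain came from mice 3 days after 60 minutes of transient occlusion of the middle cerebral artery (tMCAO), a model of ischemic stroke with reperfusion, and each of the 3 groups had 2 samples. Whether a sample was 1 mouse or a pool is not given in the sources used here, so the *P* values reflect the spread of these samples alone, and that spread may be technical.

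In T cells some of these receptors work in pairs with activating receptors that share their ligands. CTLA-4 competes with CD28 for CD80 and CD86, TIGIT competes with CD226 for CD155 and nectin-2, and BTLA and CD160 bind HVEM, while PD-1 binds PD-L1 and PD-L2, LAG-3 binds MHC class II, and TIM-3, the product of *Havcr2*, has galectin-9 and CEACAM1 among its reported ligands. TIM-3 is also a receptor of innate immune cells, including microglia and macrophages, and CD160 is also found on NK cells. Several of these genes rise when a T cell is stimulated through its antigen receptor, and many of them together on 1 T cell are a known feature of exhaustion.

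The libraries labelled tMCAO brain held little T cell RNA, and every comparison with them is read beside that measurement. *Cd3e*, the CD3 epsilon chain, measured 700 and 754 counts with TMM scaling per 1000000 (CPM, the unit of all levels below unless FPKM is named) in sham blood, 932 and 455 CPM in blood after tMCAO, and 7.0 and 5.40 CPM in brain. *Cd8a*, the CD8 alpha chain of the sort gate, measured 949, 867, 795, and 1286 CPM in the blood libraries and 2.30 and 2.2 CPM in brain. *Il2rb*, which encodes the CD122 of the gate, measured 410 and 449 CPM in sham blood, 680 and 160 CPM in blood after tMCAO, and 4.52 and 6.22 CPM in brain. The 14 tested T cell identity genes together took 10391 to 16635 CPM in the blood libraries and 70.1 and 56.3 CPM in brain, while 12 microglia genes took 196 to 266 CPM in blood and 11130 and 22119 CPM in brain. In the blood libraries the microglia genes *Tmem119*, *Sall1*, *Siglech*, and *P2ry13* were at 0 CPM or at most 0.207 CPM, and in brain they measured between 20.5 and 443 CPM. The 10 monocyte and macrophage genes summed to 1199 to 3466 CPM in blood and to 26793 and 22030 CPM in brain. In bulk RNA, fewer cells of a type and less RNA per cell cannot be told apart. Counts on genes were 13793081 to 17149924 per library, and the replicates of tMCAO blood lay farther apart than those of the other groups, with an SD of their log2 ratio of 1.00 across genes against 0.59 in sham blood and 0.65 in brain.

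In sham blood the receptors covered a wide range of levels, which were compared between genes on the FPKM scale, a value per kilobase of transcript as deposited. *Cd160* (151 ± 73.7 FPKM, SD, n = 2) and *Ctla4* (109 ± 17.8 FPKM) led, and their libraries overlapped. *Tigit* followed at 66.8 ± 20.8 FPKM, *Btla* at 36.1 ± 7.92 FPKM, and *Pdcd1* at 14.3 ± 1.13 FPKM, and none of these overlapped with its neighbor in the order. *Havcr2* (3.08 ± 0.16 FPKM) and *Lag3* (0.53 ± 0.11 FPKM) closed the order, also without overlap. The sham blood libraries thus held mainly transcripts of the receptors for HVEM, the B7 ligands, and the nectin family.

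The order was similar at the top in tMCAO blood and different in brain. In tMCAO blood, *Cd160* (133 ± 21.7 FPKM) and *Ctla4* (129 ± 109 FPKM) overlapped, *Tigit* measured 42.8 ± 8.77 FPKM without overlap with its neighbors, *Btla* (21.5 ± 4.88 FPKM) and *Pdcd1* (16.4 ± 15.3 FPKM) overlapped, and so did *Lag3* (0.98 ± 0.91 FPKM) and *Havcr2* (0.81 ± 1.14 FPKM). In brain, *Havcr2* at 41.8 ± 16.1 FPKM made up 90.0% and 82.6% of the FPKM summed over the 7 receptors, against 0.724% and 0.908% in sham blood. The other 6 receptors in brain lay between 0.238 and 4.12 FPKM per library, and each overlapped with its neighbor in the order of means, *Lag3*, *Ctla4*, *Pdcd1*, *Tigit*, *Btla*, and *Cd160*. The deposited FPKM and the counts did not move alike for *Cd160* in sham blood, which had 203 and 98.9 FPKM but 5148 and 4704 counts.

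**Figure D1:**
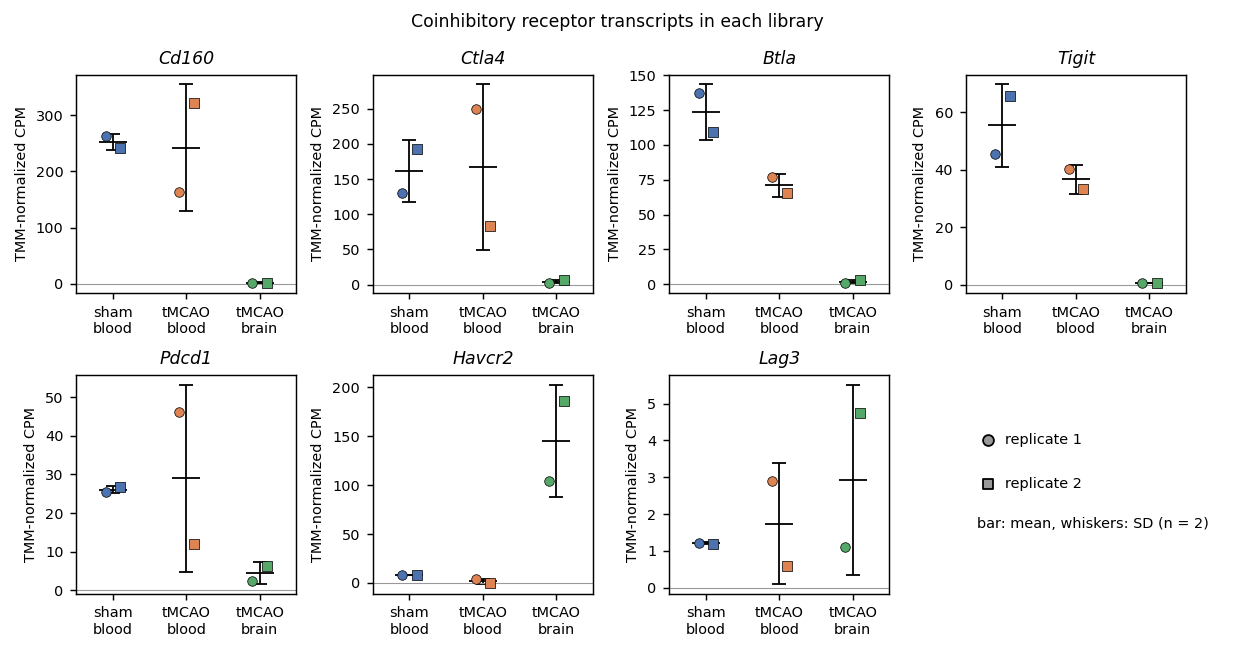
TMM-normalized CPM of the 7 receptors in each library (circle, replicate 1, and square, replicate 2), with the mean and SD of 2 libraries per group and a vertical scale of its own for each gene. *Cd160*, *Ctla4*, *Btla*, and *Tigit* lay near 0 in both brain libraries, where *Havcr2* measured 105 and 186 CPM, a pattern that under scaling to T cell transcripts no longer held for the falls.

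Stroke left the 7 receptors of circulating cells without a detectable change at this depth and replication. The comparison of tMCAO blood with sham blood asks how the cells sorted from blood differ after stroke. Of the 7 receptors, 0 rose and 0 fell in edgeR's quasi-likelihood test at a fold change over 2 with an adjusted *P* under 0.05, where 0% of the 12424 tested genes rose and 0.821% fell, and 0 of the 7 had an unadjusted *P* under 0.05. No receptor was called by RLE size factors, DESeq2, limma-voom, or limma on FPKM either. The median log2 fold change of the receptors was −0.06 against 0.03 over all tested genes.

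The B7 family receptors were held apart by the tMCAO blood replicates rather than by the groups. *Ctla4* measured 130 and 193 CPM in sham blood, against 250 and 83.5 CPM in tMCAO blood, so that the tMCAO libraries lay on either side of the sham libraries (log2 fold change 0.05, 95% CI −1.32 to 1.42, edgeR adjusted *P* = 1). *Pdcd1*, which encodes PD-1, measured 25.4 and 26.7 CPM in sham blood, against 46.2 and 11.9 CPM in tMCAO blood, again on either side (0.15, 95% CI −1.46 to 1.77, edgeR adjusted *P* = 0.994). Between the 2 tMCAO blood libraries, replicate 1 held 3.87 times the *Pdcd1*, 2.99 times the *Ctla4*, 4.96 times the *Lag3*, and 4.26 times the *Il2rb* of replicate 2.

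Among the receptors of the HVEM and nectin axes, *Btla* and *Tigit* were tighter between the tMCAO blood replicates. *Btla* measured 138 and 109 CPM in sham blood, against 76.8 and 65.2 CPM in tMCAO blood, both tMCAO libraries below both sham libraries (a log2 fold change of −0.80, SE 0.41, edgeR adjusted *P* = 0.699). Summed B cell genes were lower too, 1025 and 602 CPM in sham blood against 31.0 and 86.2 CPM in tMCAO blood. Their part in the *Btla* level was not tested. *Tigit* measured 45.3 and 65.5 CPM in sham blood, against 40.2 and 33.1 CPM in tMCAO blood, also without overlap (−0.60, SE 0.32, edgeR adjusted *P* = 0.717). *Cd160* measured 262 and 242 CPM in sham blood, against 163 and 322 CPM in tMCAO blood, on either side of the sham libraries (−0.06, SE 0.43, edgeR adjusted *P* = 1). In *Cd160* it was replicate 2 of tMCAO blood that was higher, by 1.97 times.

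The 2 receptors at low levels gave the widest intervals. *Havcr2* had 163 counts in each sham library (8.31 and 8.37 CPM), 71 counts in tMCAO blood replicate 1 (3.67 CPM), and 0 counts in replicate 2, with an exact Poisson 95% interval up to 0.216 CPM (log2 fold change −2.16, 95% CI −4.84 to 0.53, edgeR adjusted *P* = 0.706). Without tMCAO blood replicate 1 the remaining library had no count, and *Havcr2* passed as lower with an edgeR adjusted *P* of 0.0218. *Lag3* had 24 and 23 counts in sham blood and 56 and 10 counts in tMCAO blood (1.22, 1.18, 2.90, and 0.585 CPM), so that the groups overlapped (0.53, SE 1.08, edgeR adjusted *P* = 0.955). Of the 7 receptors, *Btla*, *Tigit*, and *Havcr2* were lower in tMCAO blood without overlap of the libraries, beside 18.6% of all tested genes, and 0 were higher without overlap, beside 17% of them.

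Among the genes around the receptors, 4 passed the test between the blood groups, 3 ligands and *Sirpa*, and all 4 fell after tMCAO. Of 11 tested ligand genes, 3 fell and 0 rose in tMCAO blood, beside 0.821% and 0% of all tested genes. *H2-Ab1*, an MHC class II chain and thus a LAG-3 ligand, measured 991 and 592 CPM in sham blood, against 8.69 and 18.9 CPM in tMCAO blood (a log2 fold change of −5.84, SE 0.53, edgeR adjusted *P* = 0.00832). *H2-Aa*, the partner chain, fell from 604 and 342 CPM to 1.60 and 7.07 CPM (edgeR adjusted *P* = 0.0137), and *Ceacam1* fell from 10.1 and 8.16 CPM to 0.0517 and 0 CPM (edgeR adjusted *P* = 0.00996). The 7 B cell genes found in the table summed to 1025 and 602 CPM in sham blood and to 31.0 and 86.2 CPM in tMCAO blood. The 10 monocyte and macrophage genes summed to 2097 and 3466 CPM in sham blood and to 1199 and 1580 CPM in tMCAO blood. Of these 10, 5 fell and 0 rose. *Lyz2* measured 358 and 1854 CPM in sham blood, against 10.3 and 17.8 CPM in tMCAO blood, while mean *Cd68* was 34.3 and 34.2 CPM and mean *Ccr2* 218 and 187 CPM. The part of these cell types in the 3 ligand results, and in the lower *Btla* and *Havcr2* of tMCAO blood, was not tested. *Sirpa* was the 1 gene that fell among 12 other inhibitory receptors (log2 fold change −6.27, edgeR adjusted *P* = 0.0170). Of the 9 tested activating counterparts, 10 inhibitory signaling genes, and 14 transcription factors, 0 passed edgeR's test between the blood groups, although 1, 2, and 4 of them had an unadjusted *P* under 0.05, and DESeq2 called 2 transcription factors lower, *Nr4a1* and *Nr4a3*. *Nr4a1*, which antigen receptor signals induce, measured 56.8 ± 26.9 CPM (SD, n = 2) in sham blood, against 9.20 ± 7.63 CPM after tMCAO (log2 fold change −2.62, edgeR adjusted *P* = 0.209), and *Nr4a3*, of the same family, 0.663 and 5.85 CPM, against 0 counts in both tMCAO blood libraries (edgeR adjusted *P* = 0.298). *Irf4*, a factor of activated T cells, measured 16.4 and 8.47 CPM, against 4.24 and 0.760 CPM (−2.31, edgeR adjusted *P* = 0.555).

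In the libraries from brain, *Cd160*, *Tigit*, *Btla*, *Ctla4*, and *Pdcd1* fell and *Havcr2* rose, 5 and 1 of the 7 receptors, against sham blood and against tMCAO blood alike with scaling by TMM, and the falls did not hold with scaling to T cell transcripts. The question was how the cells sorted from ischemic brain differ from those sorted from blood. Against sham blood, 11.8% of all tested genes fell and 18.7% rose, and against tMCAO blood 13.2% fell and 20.4% rose. The libraries of all 6 did not overlap with blood, beside 35.8% of tested genes lower and 43.1% higher without overlap against sham blood, and 30.9% and 37.6% against tMCAO blood. The median log2 fold change of the receptors was −5.26 against sham blood and −5.17 against tMCAO blood, beside 0.13 and 0.05 over all tested genes. These directions are relative to the TMM-scaled library total. When the libraries were instead scaled to equal levels of the 14 T cell identity genes, the median of all tested genes moved to 7.49 and 7.66, 0 of the 7 receptors fell (0.105% and 0.0563% of all tested genes), and 4 rose against sham blood (95.3% of all tested genes) and 5 against tMCAO blood (95.7%). Both comparisons share the brain libraries and are not independent.

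**Figure D2:**
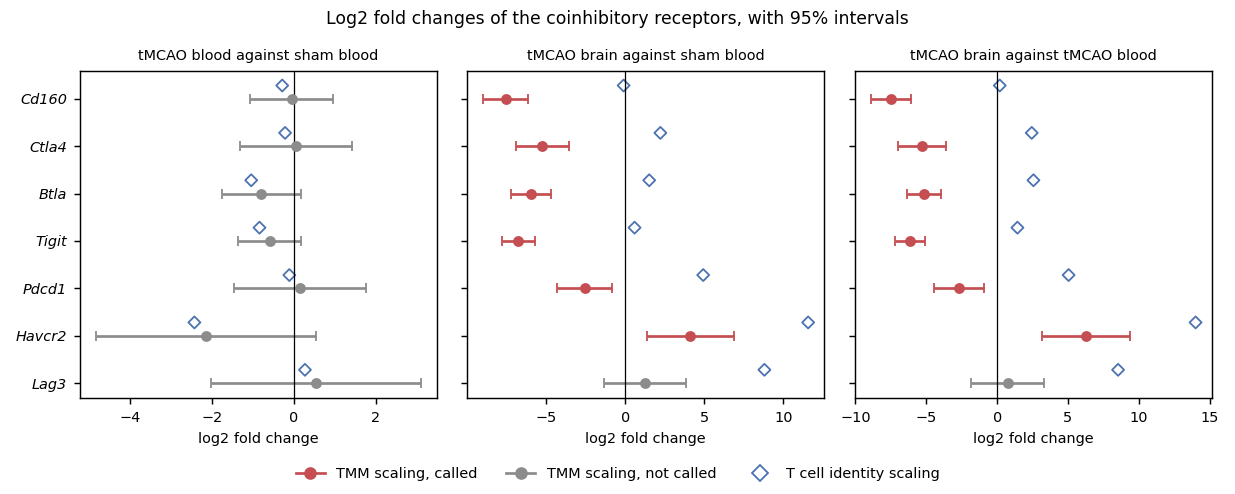
Log2 fold changes of the 7 receptors in the 3 comparisons, with 95% confidence intervals from edgeR (filled circles, red where called at a fold change over 2 with adjusted *P* under 0.05) and the values after scaling to T cell identity genes (open diamonds). The intervals of *Cd160*, *Tigit*, *Btla*, *Ctla4*, and *Pdcd1* lie below 0 in both brain comparisons, while their diamonds lie above 0 except that of *Cd160* against sham blood at −0.10.

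*Cd160*, the GPI-anchored HVEM receptor that NK cells also carry, fell the most. It measured 262 and 242 CPM in sham blood, 163 and 322 CPM in blood after tMCAO, and 0.737 and 1.92 CPM in brain, from 8 and 21 counts. Both brain libraries lay far below all 4 blood libraries. *Cd160* fell by 7.56 on the log2 scale against sham blood (SE 0.60, edgeR adjusted *P* = 0.000352) and by 7.50 against tMCAO blood (SE 0.60, edgeR adjusted *P* = 0.000269), but after T cell scaling the differences were −0.10 and 0.18 on the log2 scale. The gene span overlaps that of *Pdzk1* on the other strand, and strand is not stated for the counting. *Pdzk1* had 0 to 43 counts in the blood libraries, where *Cd160* had 3149 to 5503, but 9 and 11 counts in brain, against 8 and 21 of *Cd160*. Whether the exons of the 2 genes overlap was not examined, so it is not known if the overlap touches the low brain level of *Cd160*. All 3 tested NK cell genes also fell in both brain comparisons, beside 11.8% and 13.2% of all tested genes, and so did all 14 T cell identity genes. The NK cell genes summed to 80.8 to 242 CPM in the blood libraries and to 0.0921 and 1.55 CPM in brain. Their median log2 fold change with T cell scaling was −0.25 and −0.006, and their part in the *Cd160* result was not tested.

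*Tigit* fell as tightly as any member. It measured 45.3 and 65.5 CPM in sham blood, 40.2 and 33.1 CPM in blood after tMCAO, and 0.461 and 0.549 CPM in brain. The brain values rest on 5 and 6 counts, with exact Poisson 95% intervals of 0.150 to 1.08 CPM and 0.201 to 1.19 CPM that cover counting error only. *Tigit* fell by 6.76 on the log2 scale against sham blood (SE 0.45, edgeR adjusted *P* = 0.000232) and by 6.16 against tMCAO blood (SE 0.45, edgeR adjusted *P* = 0.000197), whereas T cell scaling gave 0.59 and 1.43, neither of which passed the test.

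*Btla*, the second HVEM receptor and one with inhibitory tyrosine motifs, measured 138 and 109 CPM in sham blood, 76.8 and 65.2 CPM in blood after tMCAO, and 1.01 and 2.93 CPM in brain. The groups did not overlap. *Btla* fell by 5.96 on the log2 scale against sham blood (SE 0.53, edgeR adjusted *P* = 0.000512) and by 5.17 against tMCAO blood (SE 0.51, edgeR adjusted *P* = 0.000575). Its direction turned with T cell scaling, to 1.52, which did not pass the test (edgeR adjusted *P* = 0.101), and 2.56, which did (0.0136). With that scaling the T cell identity genes themselves ranged from −1.31 (*Cd8a*) to 1.33 (*Cd5*) against sham blood.

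*Ctla4* measured 130 and 193 CPM in sham blood, 250 and 83.5 CPM in blood after tMCAO, and 2.40 and 6.04 CPM in brain, so that the lowest blood library was still far above both brain libraries. *Ctla4* fell by 5.26 on the log2 scale against sham blood (SE 0.71, edgeR adjusted *P* = 0.00235) and by 5.30 against tMCAO blood (SE 0.71, edgeR adjusted *P* = 0.00191), and T cell scaling turned these into 2.22 and 2.44. For *Ctla4*, *Tigit*, *Btla*, and *Cd160* the calls held under all 16 other settings tried apart from T cell scaling.

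*Pdcd1* fell less and less firmly. It measured 25.4 and 26.7 CPM in sham blood, 46.2 and 11.9 CPM in blood after tMCAO, and 2.49 and 6.40 CPM in brain, from 27 and 70 counts, with no overlap between brain and blood. *Pdcd1* fell by 2.55 on the log2 scale against sham blood (SE 0.74, edgeR adjusted *P* = 0.0375) and by 2.71 against tMCAO blood (SE 0.74, edgeR adjusted *P* = 0.0292), and T cell scaling turned these into 4.93 and 5.05. Against sham blood the call was lost without sham blood replicate 1 (edgeR adjusted *P* = 0.110), without sham blood replicate 2 (0.112), and without brain replicate 1 (0.189) or 2 (0.0750). Against tMCAO blood it was lost without tMCAO blood replicate 1 (fell by 1.43, edgeR adjusted *P* = 0.0751) and without brain replicate 1 (0.159) or 2 (0.0616). With limma-voom the *Pdcd1* call was lost in both comparisons (limma adjusted *P* = 0.0659 and 0.0747).

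*Havcr2* was the 1 receptor that rose. It measured 8.31 and 8.37 CPM in sham blood, 3.67 and 0 CPM in blood after tMCAO, and 105 and 186 CPM in brain, from 1136 and 2030 counts. Every brain library was above every blood library by over 10 times. *Havcr2* rose by 4.12 on the log2 scale against sham blood (SE 1.16, edgeR adjusted *P* = 0.0347) and by 6.28 against tMCAO blood (SE 1.31, edgeR adjusted *P* = 0.0108). The direction stayed the same with RLE factors and with library size alone. T cell scaling also kept it but could not turn a rise, as it moved the median of all tested genes to 7.49 and 7.66. Its replicates in sham blood agreed within 1.01 times, and in brain replicate 2 was 1.77 times replicate 1.

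The call for *Havcr2* against sham blood rested on few libraries. It was lost without sham blood replicate 1 (edgeR adjusted *P* = 0.173), without sham blood replicate 2 (0.163), and without brain replicate 1 (0.116) or 2 (0.184), with DESeq2 (adjusted *P* = 0.113), and with library size alone (edgeR adjusted *P* = 0.0655). Against tMCAO blood it was lost without brain replicate 2 alone among the libraries (edgeR adjusted *P* = 0.0684), and without tMCAO blood replicate 1 the log2 fold change was 14.14 against a library at 0 counts. Summed microglia genes in brain replicate 2 were 1.99 times those in replicate 1, and summed monocyte and macrophage genes were 0.822 times as high. The part of these cell types in the rise of *Havcr2* was not tested.

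*Lag3*, a CD4-like receptor for MHC class II, stayed low everywhere. It had 24 and 23 counts in sham blood, 56 and 10 counts in tMCAO blood, and 12 and 52 counts in brain (1.22, 1.18, 2.90, 0.585, 1.11, and 4.76 CPM), and the brain libraries lay on either side of the sham libraries. The log2 fold change was 1.28 against sham blood (95% CI −1.31 to 3.87, edgeR adjusted *P* = 0.412) and 0.75 against tMCAO blood (SE 1.08, edgeR adjusted *P* = 0.626). A difference was not detectable at this depth, although T cell scaling gave 8.80 and 8.54, both past the threshold.

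**Figure D3:**
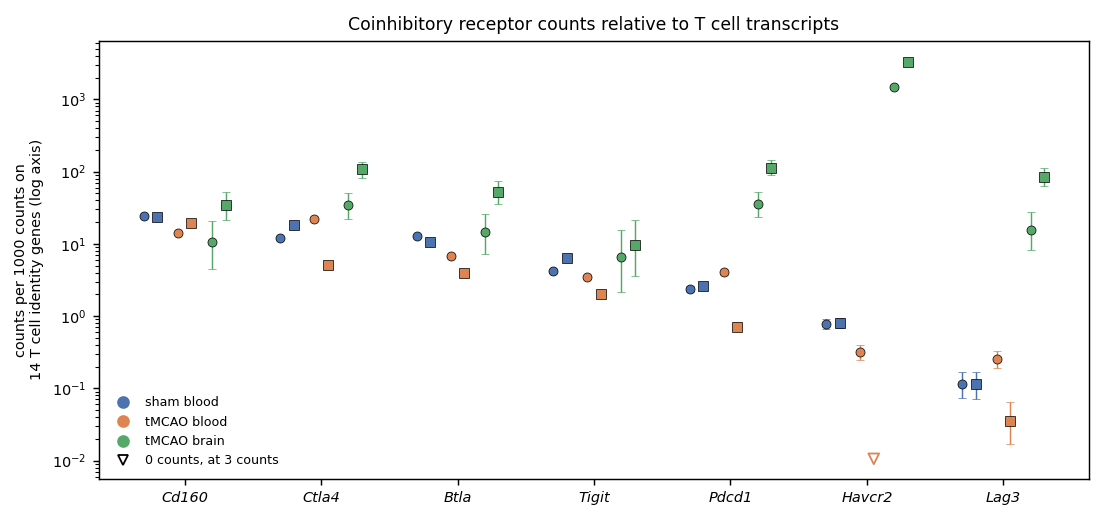
Counts on each receptor per 1000 counts on the 14 T cell identity genes in each library, on a log axis, with exact Poisson 95% intervals for the receptor count (circle, replicate 1, and square, replicate 2). *Cd160* lay between 10.5 and 34.1 in all 6 libraries, while *Havcr2* rose from at most 0.805 in blood to 1493 and 3295 in brain.

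Set against the T cell transcripts of the same library, the receptors split by how far brain departed from blood. *Cd160* had 24.3 and 23.2 counts per 1000 T cell identity counts in sham blood, 14.2 and 19.3 in blood after tMCAO, and 10.5 and 34.1 in brain, so that the brain libraries lay on either side of all blood libraries. *Tigit* had 4.20 and 6.31 in sham blood, 3.50 and 1.99 in blood after tMCAO, and 6.57 and 9.74 in brain. The counting intervals of its brain values, 2.13 to 15.3 and 3.57 to 21.2, cover both sham values, while the tMCAO value of 1.99 lay below both intervals and that of 3.50 below the second. *Pdcd1* had 2.36 and 2.57 in sham blood, 4.02 and 0.717 in blood after tMCAO, and 35.5 and 114 in brain. *Ctla4*, with 12.1 and 18.5 in sham blood and 21.7 and 5.02 in blood after tMCAO, had 34.2 and 107 in brain, and *Btla*, with 12.7 and 10.5 in sham blood and 6.69 and 3.92 in blood after tMCAO, had 14.5 and 51.9. *Havcr2* had 0.770 and 0.805 in sham blood and 1493 and 3295 in brain, more counts than the 14 T cell genes together. The T cell sums behind the brain values were 761 and 616 counts, against 202379 to 284576 counts in the blood libraries.

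The promoters of *Havcr2* and *Btla* are shown because both contain the letters of a PU.1 motif although the transcripts moved in opposite directions with TMM scaling. PU.1, encoded by *Spi1*, is a transcription factor of myeloid and B cells, and *Spi1* measured 18.5 and 26.2 CPM in sham blood, 0.0517 and 0 CPM in blood after tMCAO, and 536 and 591 CPM in brain. RefSeq (GRCm38.p6) gave promoters for 6 of the 7 receptors, and the 250 bases before the RefSeq start were searched on both strands for GAGGAAGT, letters chosen after the sequences had been read. The 250 bases of *Havcr2* lie at chr11:46454681-46454930 and those of *Btla* at chr16:45224087-45224336, both on the plus strand, with the motif in capitals and its first base 8 and 18 bases before the start.
Havcr2: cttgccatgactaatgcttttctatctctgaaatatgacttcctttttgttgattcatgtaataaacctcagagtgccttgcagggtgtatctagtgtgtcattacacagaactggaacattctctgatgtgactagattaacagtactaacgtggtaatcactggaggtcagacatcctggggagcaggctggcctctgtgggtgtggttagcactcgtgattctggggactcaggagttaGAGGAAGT
Btla: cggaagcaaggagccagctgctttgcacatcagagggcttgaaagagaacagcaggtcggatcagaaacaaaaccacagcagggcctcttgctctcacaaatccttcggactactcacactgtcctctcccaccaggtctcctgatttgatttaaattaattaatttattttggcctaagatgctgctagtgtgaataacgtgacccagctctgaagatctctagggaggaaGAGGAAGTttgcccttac
The motif was in 2 of the 6 receptor promoters and in 802 of all 32851 promoters of this length (2.44%). Because its letters were chosen after reading, these shares cannot be compared as a test. A second motif was also searched, the NFAT core GGAAA, and it was in 4 of the 6 and in 55.6% of all. A match describes the letters only.

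Of 11 tested ligand genes, 5 rose and 0 fell in brain against sham blood, beside 18.7% and 11.8% of all tested genes. Against tMCAO blood 6 rose and 0 fell, beside 20.4% and 13.2%. The genes that passed kept their direction with RLE factors and with library size alone. T cell scaling could not turn a rise, as it moved the median of all tested genes to 7.49 and 7.66. *Cd86*, a ligand of CTLA-4 and CD28 on antigen-presenting cells, measured 52.5 and 60.9 CPM in sham blood, 55.7 and 71.7 CPM in blood after tMCAO, and 223 and 477 CPM in brain (log2 fold change against sham blood 2.63, SE 0.41, edgeR adjusted *P* = 0.00388). *Lgals9*, which encodes galectin-9, measured 368 to 464 CPM in blood and 1264 and 1276 CPM in brain (1.65, SE 0.26, edgeR adjusted *P* = 0.00425). *Pvrl2*, which encodes the TIGIT ligand nectin-2, had 0 counts in all 4 blood libraries and 17.6 and 36.5 CPM in brain. *H2-Ab1* rose from 991 and 592 CPM in sham blood to 2137 and 2264 CPM in brain (1.48, edgeR adjusted *P* = 0.0406, and 0.91 with library size alone). Its partner chain *H2-Aa* measured 604 and 342 CPM in sham blood and 1088 and 1119 CPM in brain and did not pass (1.22, edgeR adjusted *P* = 0.169). *Ceacam1* rose to 22.4 and 37.1 CPM (edgeR adjusted *P* = 0.0385). *Cd274*, which encodes PD-L1, measured 17.7 to 37.2 CPM in blood and 33.0 and 65.7 CPM in brain and did not pass (0.54, edgeR adjusted *P* = 0.376 against sham blood, and −0.03 with library size alone). *Pdcd1lg2*, which encodes PD-L2, measured 4.49 and 6.26 CPM in sham blood and 2.49 and 0.457 CPM in brain and did not pass either (−1.86, edgeR adjusted *P* = 0.167). *Tnfrsf14*, which encodes HVEM, measured 0 to 1.76 CPM in the 6 libraries (−0.46, edgeR adjusted *P* = 0.860 against sham blood). The microglia and macrophage sums above moved with the ligands that rose, and their part was not tested.

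The activating counterparts fell with the receptors, 8 of 9 tested genes in each brain comparison and 0 higher, beside 11.8% and 13.2% of all tested genes lower. Of these 8, 5 turned direction with T cell scaling. Their median log2 fold change against sham blood was −6.17, and 1.19 with T cell scaling. Besides *Cd28* and *Cd226*, the tested genes were *Cd2*, *Cd27*, *Cd96*, *Icos*, *Tnfrsf4*, *Tnfrsf9*, and *Tnfrsf18*, so the list was not limited to rivals for the same ligands. It also counted *Cd96*, whose place among activating receptors is disputed. *Cd28*, the activating rival of CTLA-4, measured 594 and 754 CPM in sham blood and 15 and 7.50 CPM in brain, and fell by 5.90 on the log2 scale (SE 0.46, edgeR adjusted *P* = 0.000329), which was 1.36 with T cell scaling. *Cd226*, the activating rival of TIGIT, measured 241 and 192 CPM in sham blood and 0.553 and 2.10 CPM in brain, and fell by 7.34 (SE 0.59, edgeR adjusted *P* = 0.000364), which was 0.15 with T cell scaling. *Icos* fell by 4.53 (SE 0.31, edgeR adjusted *P* = 0.000233), or 2.85 higher with T cell scaling. *Cd4*, whose protein binds the same MHC class II as LAG-3, had 0 counts in all 4 blood libraries and 5 and 9 counts in the brain libraries, too few to be among the tested genes.

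Of 10 genes for the intracellular signal of these receptors, 1 rose and 1 fell against sham blood, beside 18.7% and 11.8% of all tested genes. Against tMCAO blood 4 rose and 1 fell, beside 20.4% and 13.2%. Every scaling kept these directions, but T cell scaling could not turn a rise, as it moved the median of all tested genes to 7.49 and 7.66. *Inpp5d*, which encodes the inositol phosphatase SHIP, measured 11.6 to 30.5 CPM in blood and 185 and 172 CPM in brain (log2 fold change against sham blood 2.66, SE 0.46, edgeR adjusted *P* = 0.00595). *Ptpn6*, which encodes the SH2 domain phosphatase SHP-1 of T cells and myeloid cells, measured 409 and 522 CPM in sham blood, 207 and 314 CPM in blood after tMCAO, and 466 and 483 CPM in brain, and passed no comparison. *Sh2d1a*, which encodes the lymphocyte adaptor SAP, fell from 247 and 253 CPM in sham blood to 0.0921 and 1.55 CPM in brain (edgeR adjusted *P* = 0.00102).

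Of 14 transcription factors known from the coinhibitory program of T cells, 3 rose and 4 fell against sham blood, beside 18.7% and 11.8% of all tested genes. Against tMCAO blood 4 rose and 4 fell, beside 20.4% and 13.2%. The lymphocyte factors *Tox*, *Eomes*, *Tbx21*, and *Tcf7* fell in both comparisons, of which 1 turned direction with T cell scaling against sham blood and 2 against tMCAO blood. The rises kept their direction with RLE factors and with library size alone, while T cell scaling could not turn a rise. *Tox*, a factor of T cell exhaustion, measured 81.1 and 85.1 CPM in sham blood and 0.0921 and 0.732 CPM in brain, and fell by 7.63 on the log2 scale (SE 0.80, edgeR adjusted *P* = 0.00089), which was −0.16 with T cell scaling. *Tcf7* fell by 6.58 (SE 0.60, edgeR adjusted *P* = 0.000546), and was 0.66 with T cell scaling. *Nr4a1*, an early gene of antigen receptor signaling that myeloid cells also use, measured 37.7 and 75.8 CPM in sham blood, 14.6 and 3.8 CPM in blood after tMCAO, and 382 and 358 CPM in brain (2.70, SE 0.63, edgeR adjusted *P* = 0.0181). *Maf* rose from 3.06 and 5.34 CPM in sham blood to 82.4 and 59.6 CPM in brain (edgeR adjusted *P* = 0.00184). *Nr4a3* rose too, from 0.663 and 5.85 CPM to 89.4 and 21.4 CPM (edgeR adjusted *P* = 0.0428).

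Inhibitory receptors outside the 7 moved in both directions. Of 12 tested genes, 6 rose and 3 fell against sham blood, beside 18.7% and 11.8% of all tested genes. Against tMCAO blood 8 rose and 3 fell, beside 20.4% and 13.2%. *Lilrb4a*, an inhibitory receptor of myeloid cells, measured 29.1 to 57.9 CPM in blood and 1841 and 1589 CPM in brain (log2 fold change against sham blood 5.07, SE 0.37, edgeR adjusted *P* = 0.000281). *Sirpa*, the CD47 receptor of phagocytes, measured 3.11 and 6.47 CPM in sham blood, 0.103 and 0 CPM in blood after tMCAO, and 755 and 719 CPM in brain (7.26, SE 0.55, edgeR adjusted *P* = 0.000314). *Klrc1*, which encodes the NKG2A chain of CD8+ T cells and NK cells, fell from 972 and 871 CPM in sham blood to 1.47 and 7.87 CPM in brain (edgeR adjusted *P* = 0.000893). *Klrg1*, a receptor of effector T cells and NK cells, fell from 61.4 and 34.9 CPM to 0 counts in both brain libraries. *Cd5*, which restrains antigen receptor signaling and is also among the T cell identity genes, fell from 81.0 and 102 CPM to 2.49 and 0.640 CPM (edgeR adjusted *P* = 0.00177). Of the 3 that fell, 1 against sham blood and 2 against tMCAO blood turned direction with T cell scaling. The rises kept theirs with RLE factors and with library size alone, while T cell scaling could not turn a rise.

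**Figure D4:**
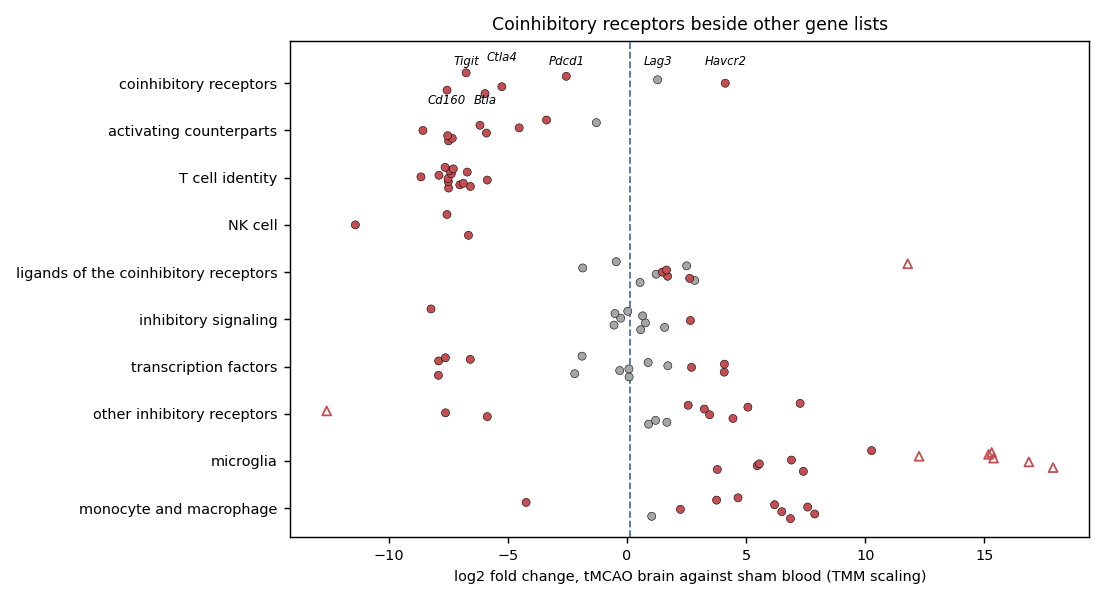
Log2 fold changes of tMCAO brain against sham blood with TMM scaling for the tested genes of 10 lists, 1 symbol per gene (red, called at a fold change over 2 with adjusted *P* under 0.05, and gray, not called). Open triangles are genes with no count in one group, whose fitted value is no bound, and the dashed line is the median of all tested genes at 0.13. *Havcr2* stands apart from the receptors that lie with the T cell identity genes, whose falls are relative to TMM-scaled library totals and not to T cell transcripts.

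The genes whose profile over the 6 libraries was closest to each receptor were found by the root mean square distance of centered log2(CPM + 0.5) values among the 12424 tested genes. For *Cd160* they were *Klrk1* (distance 0.154), which encodes the activating receptor NKG2D, *Ifng* (0.222), and *Cd226* (0.252). For *Tigit* they were *Scml4* (0.183), *Gm13051*, and *Sh2d2a*, and for *Ctla4* they were *Rhof* (0.230), *Ehd3*, and *Sytl3*. *Rhof* was also among the closest for *Btla*, after *Gm4759* (0.241) and *Ablim1*. For *Havcr2* they were *Naglu* (0.189), a lysosomal enzyme, *Irf5* (0.463), a transcription factor of macrophages and B cells, and *Unc93b1* (0.470), the chaperone of endosomal Toll-like receptors. *Naglu* measured 5.71 and 7.19 CPM in sham blood, 3.57 and 0 CPM in blood after tMCAO, and 105 and 149 CPM in brain, close to *Havcr2* in every library. For *Pdcd1* they were *Afmid* (0.199), *H2-Q5*, and *Wbscr27*, which repeated the high first and low second library of tMCAO blood. For *Lag3* they were *Rab3b* (0.235), *Car7*, and *1700028J19Rik*, each at most 2.01 CPM in every library.

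The receptor genes lie on 5 chromosomes of GRCm38 (GENCODE M21). *Ctla4* spans chromosome 1, 60887000 to 60915832, and overlaps the pseudogene *Rpl18-ps1*, and *Pdcd1* lies on the same chromosome at 94038305 to 94052553. *Tigit* (43648867 to 43664146) and *Btla* (45224315 to 45257670) share chromosome 16. *Cd160* spans chromosome 3, 96798763 to 96829351, *Lag3* chromosome 6, 124904361 to 124911705, and *Havcr2* chromosome 11, 46454935 to 46481255.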

How the data were processed

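Reads from 6 libraries of FACS-sorted CD8+CD122+CD49dlow TRLs (SMART-Seq cDNA, Nextera XT, paired-end NextSeq 500) were cleaned and mapped by the authors to GRCm38 (mm10) with TopHat, with a version not given in the sources used here. Raw counts per gene symbol and FPKM values were deposited by the authors. In the FPKM table, 22283 of 24572 rows were used. The 5 count rows that name no gene (reads outside annotated features were 43.0% to 45.6%) and 27 rows with dates in place of symbols were left out.

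Counts were tested with edgeR 4.0.16 in R 4.3.3: filterByExpr (minimum 10, total 15), TMM factors, quasi-likelihood fit of all 6 samples with 3 residual degrees of freedom, and Benjamini-Hochberg adjustment over 12424 genes. Calls needed a fold change over 2 at an adjusted *P* under 0.05. With 2 samples per group no permutation test can reach 0.05. The procedure was tested on simulated data. Alternatives were RLE factors, library size alone, scaling to T cell identity genes, no filter, 2 groups only, DESeq2 1.42.0, limma-voom 3.58.1, a replicate block, limma on log2(FPKM + 1) or log2(FPKM + 0.1), with or without a minimum FPKM of 1, and leaving out each library. The members and gene lists were chosen with earlier results of these data known. Named genes were all members, up to 4 genes of the smallest *P* per list and comparison, and the 3 closest profiles per member, and others (*Spi1* and *Ptpn6* among them) come from the same lists. Intervals on counts are exact Poisson at 95% and cover counting error only.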

Additional observations from a re-analysis of the deposited data

How the results depend on the processing

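T cell scaling changed the brain results most. It gave 11840 genes higher and 13 lower against sham blood (receptors 4 and 0) and 11886 and 7 against tMCAO blood (receptors 5 and 0), and turned *Pdcd1* (4.93 and 5.05), *Ctla4* (2.22 and 2.44), *Tigit* (0.59 and 1.43), *Btla* (1.52 and 2.56), and, against tMCAO blood, *Cd160* (0.18). Library size alone shifted the median of all genes to −0.44 in both brain comparisons and gave 2709 and 2863 genes lower. *Pdcd1* also missed the threshold in both brain comparisons with limma-voom and with FPKM without a filter. The receptors higher against sham blood were 0 with library size alone, with DESeq2, and with log2(FPKM + 0.1). FPKM with pseudocount 1, pseudocount 0.1, and pseudocount 1 without a filter gave 1513, 1399, and 1334 genes higher against sham blood and 1599, 1553, and 1442 against tMCAO blood.

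Between the blood groups, genes higher were 2 (T cell scaling), 1 (no filter), 13 (DESeq2), and 12, 18, and 5 (the FPKM settings in the same order), against 0 in the reported fit, and genes lower were 217 (T cell scaling), 156 (no filter), 0 (2 groups only), 361 (DESeq2), 22 (limma-voom), and 55 and 9 (FPKM with pseudocount 1, with and without the filter), against 102. *Pdcd1* turned to −0.11 (T cell scaling), −0.12 (limma-voom), −0.17 (FPKM, pseudocount 1, with and without the filter), and −0.21 (pseudocount 0.1), and *Ctla4* to −0.22, −0.13, −0.057, and −0.061, neither past the threshold anywhere. The cause was not tested.

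Leaving out 1 library at a time gave 0 to 284 genes higher and 0 to 469 lower between the blood groups with 0 to 1 receptors lower, 945 to 2944 higher and 694 to 2023 lower for brain against sham blood, and 1230 to 3198 higher and 765 to 2145 lower against tMCAO blood, with 0 to 1 receptors higher and 4 to 5 lower in both. A lone library was assumed to vary like the other groups. Between the blood groups the ranges crossed 0 for *Pdcd1* (−1.13 to 0.79), *Ctla4* (−0.95 to 0.60), *Lag3* (−1.03 to 1.23), and *Cd160* (−0.66 to 0.35), and for *Lag3* also against sham blood (−0.24 to 1.89) and tMCAO blood (−0.75 to 2.31). Samples of the same replicate number did not deviate together (correlations −0.02, −0.04, and 0.05), and with the replicate block *Pdcd1* missed the threshold against sham blood (−2.51, edgeR adjusted *P* = 0.0587) and tMCAO blood (−2.60, edgeR adjusted *P* = 0.0595), while genes higher and lower were 0 and 72, 1949 and 1310, and 2168 and 1377.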

Other observations

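Between the brain libraries, most of the receptors and the summed T cell identity genes differed in opposite directions. Brain replicate 2 held 2.57 times the *Pdcd1*, 2.52 times the *Ctla4*, 2.89 times the *Btla*, 2.61 times the *Cd160*, and 4.30 times the *Lag3* of replicate 1, while the T cell identity genes summed to 0.803 times and *Cd3e* to 0.771 times. *Tigit* differed by 1.19 times, from 5 and 6 counts, and *Cd160* (8 and 21), *Btla* (11 and 32), and *Lag3* (12 and 52) also had few counts. Other lymphocyte genes went both ways. *Klrc1* had 16 and 86 counts and *Cd226* had 6 and 23, while *Cd2* had 67 and 38 and *Cd28* had 163 and 82. Summed microglia genes in replicate 2 were 1.99 times those in replicate 1, and no cause of these differences was tested.

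Of 4 tested genes of CD4 T cells and regulatory T cells, 1 rose and 2 fell in brain against sham blood, beside 18.7% and 11.8% of all tested genes. *Foxp3*, the master factor of regulatory T cells, rose, with 4.59 and 6.21 CPM in sham blood, 3.98 and 3.74 CPM after tMCAO, and 18.8 and 15.6 CPM in brain (log2 fold change against sham blood 1.67, SE 0.45, edgeR adjusted *P* = 0.0293). *Ikzf2*, which encodes the Helios of those cells, had 435 and 1028 counts in sham blood, against 16 and 24 counts in brain, and fell by 4.35 on the log2 scale (SE 1.05, edgeR adjusted *P* = 0.0207), a difference that was 3.06 with T cell scaling. *Il2ra*, which encodes their CD25, fell from 98 and 52 counts in sham blood to 0 counts in both brain libraries (edgeR adjusted *P* = 0.0318). *Cd40lg* measured 4.33 and 5.75 CPM in sham blood and 3.96 and 0 CPM in brain and did not pass (−1.35, edgeR adjusted *P* = 0.552).

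With 2 samples per group and no record of animals behind them, these values describe 6 libraries. Receptor counts in brain were 5 to 70 apart from *Havcr2*, which limits every brain value but that one.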
